A study of Rattus norvegicus with 12 samples.

Results

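Cyp2 and Cyp4 genes other than the Cyp2b genes, Cyp2e1 and the Cyp4a genes were followed in rat liver. They were taken by name and type: protein-coding rows of the deposited table whose symbol starts with Cyp2 or Cyp4 and a letter, leaving out the 11 Cyp2b, Cyp2e1 and Cyp4a genes. The rule took 41 genes of 40154 rows and used no measured value, but it was chosen with earlier results of these data known. Of the 41 genes, 29 had enough reads to be tested, 9 had a few reads below the filter on low counts, and 3 had no read in any library (Cyp2ac1, Cyp2g1 and Cyp2j16). By the deposited coordinates, 16 of the genes lie on chromosome 1, 13 on chromosome 7 and 6 on chromosome 5. All Cyp2d and most Cyp4f genes are on chromosome 7, and the Cyp2j genes are on chromosome 5.

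The livers came from Sprague Dawley rats that ate either a normal or a high fat diet, each with or without S-allylmercaptocysteine (SAMC), a sulfur compound of garlic. The 4 groups, with 3 libraries each, are called Control and Control+SAMC on the normal diet and HFD and HFD+SAMC on the high fat diet. Replicates carry the numbers 2, 3 and 4 in the HFD group and 1, 2 and 3 elsewhere. The labels state no dose, time on diet, sex or age and do not say that each library is a separate animal, so the p-values below rest on how far these samples spread, which may be technical. By its title the study asks whether SAMC acts on drug-metabolising enzymes in fatty liver, and the genes below are members of the enzyme families to which that question applies.

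Cytochromes P450 of these families are heme enzymes of the endoplasmic reticulum that insert oxygen into their substrates with electrons passed on by P450 oxidoreductase. Many Cyp2 enzymes of the hepatocyte oxidise drugs and steroids, others make epoxides of arachidonic acid, and Cyp4 enzymes hydroxylate fatty acids and leukotrienes at the end of the chain. In rat liver several Cyp2a and Cyp2c genes differ between the sexes, because the pattern of growth hormone release differs: Cyp2c12 is the classic female gene, Cyp2c7 and Cyp2a1 are higher in females, and Cyp2c11, Cyp2c13 and Cyp2a2 are male genes.

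Total counts ran from 45680738 to 61937544 per library, and the 41 genes took 1.41% (Control replicate 2) to 2.04% (HFD replicate 3) of them. The floor of 3 counts corresponds to 0.0461 to 0.0734 CPM, the count divided by library size in units of 1e+06 reads and scaled by edgeR's TMM factors. The 10 hepatocyte markers include albumin (Alb), which alone took 8.06% (Control replicate 1) to 21.8% (Control replicate 2) of the counts within Control. Their sum, which thus follows Alb in large part, does not measure hepatocyte content. It was 164789 to 366807 CPM in Control, 157534 to 233795 in Control+SAMC, 127676 to 170074 in HFD and 143137 to 170666 in HFD+SAMC. The sum of 11 Kupffer cell and macrophage markers was 552 to 855 CPM, 655 to 856, 908 to 1054 and 753 to 891 in the same order. No gene of the 8 marker lists found in the table was at 0 in every library. The 6 cholangiocyte markers summed to 7.09 to 18.7 CPM, 19.0 to 19.3, at most 12.8 and 17.3 to 22.6 in the same order, so that the SAMC groups lay above their diet controls. Their part in the differences below was not tested. In 4 libraries (Control replicate 2, Control+SAMC replicate 1, HFD replicates 2 and 3) the fibrinogen transcript Fga stood at 3378 to 3822 CPM, against 8221 to 18523 in the other 8. HFD+SAMC replicate 3 held 440 CPM of the muscle gene Acta1, against at most 0.135 elsewhere. The deposited values of 1 gene were made with another gene length in the 6 Control and HFD+SAMC libraries than in the other 6, so the length tables behind these sets of libraries differed. Each comparison of 2 groups crosses the sets, and no value within a set can be had for it. The effects of diet averaged over SAMC, and of SAMC averaged over diet, do not cross them, while the interaction of diet and SAMC cannot be told apart from the sets.

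A large part of the transcripts of these genes came from a few Cyp2c genes. On the RPKM scale, which divides by gene length and allows genes to be compared, Cyp2c7 had the highest mean level, 2447 (range over the 12 libraries 1684 to 3039), and Cyp2c12 followed with 2118 (1362 to 2676). They were the genes of rank 34 and rank 44 in the whole table. Cyp2c7 and Cyp2c12 together held 42.8% (HFD replicate 4) to 62.5% (Control+SAMC replicate 3) of all counts of the 41 genes. The ranges of these leading genes overlap, while the highest library of the next gene, Cyp2c6v1, lies below the lowest of Cyp2c12. Cyp2c6v1, a drug-metabolising enzyme, stood at 807 (525 to 1145), Cyp2d2, the debrisoquine hydroxylase, at 654 (408 to 971), and Cyp2a1, a testosterone hydroxylase, at 496 (up to 780). The arachidonate epoxygenase Cyp2c23 had a mean RPKM of 461 and the retinoic acid hydroxylase Cyp2c22 one of 373, the latter with a range from 90.2 to 877. Cyp4f1, a fatty acid and leukotriene hydroxylase, stood at 309, Cyp2d5 at 308, Cyp2d3 at 268 and Cyp2d1 at 245. Below these 11 genes there was a gap to Cyp4v3, a fatty acid hydroxylase, with a mean RPKM of 80.5. Neighbours from Cyp2c6v1 to Cyp2d1 overlap in range, whereas every Cyp4v3 library, from 2.74 to 139, lies below every Cyp2d1 library.

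The 8 genes from Cyp4v3 down to Cyp2j3 (mean RPKM 12.5) also include Cyp4f4 (56.0), Cyp4f6 (28.3), Cyp2j4 (24.8) and the brain-type Cyp2d4 (20.3). The other tested genes were low in these livers, from 5.61 RPKM for Cyp4b1 to 0.122 for Cyp2a3, and include Cyp2r1, the vitamin D hydroxylase, at 1.79. The 9 genes below the filter were Cyp2c11, Cyp4f18, Cyp4x1, Cyp4f5, Cyp4f37, Cyp2c24, Cyp4f40, Cyp2w1 and Cyp2ab1. They had 5 (Cyp2ab1) to 66 (Cyp2c11) counts over all 12 libraries. Of these, Cyp4f18 had 2, 2 and 2 counts in Control, 0, 1 and 2 in Control+SAMC, 12, 1 and 4 in HFD and 8, 7 and 16 in HFD+SAMC, so that the HFD+SAMC libraries were above all normal diet libraries. This grouping is not among the 7 contrasts, and the share of all genes that separate this way was not taken. In a fit without the filter, which tested all 38 genes with reads, no member passed edgeR's adjusted threshold in any contrast.

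**Figure D1:**
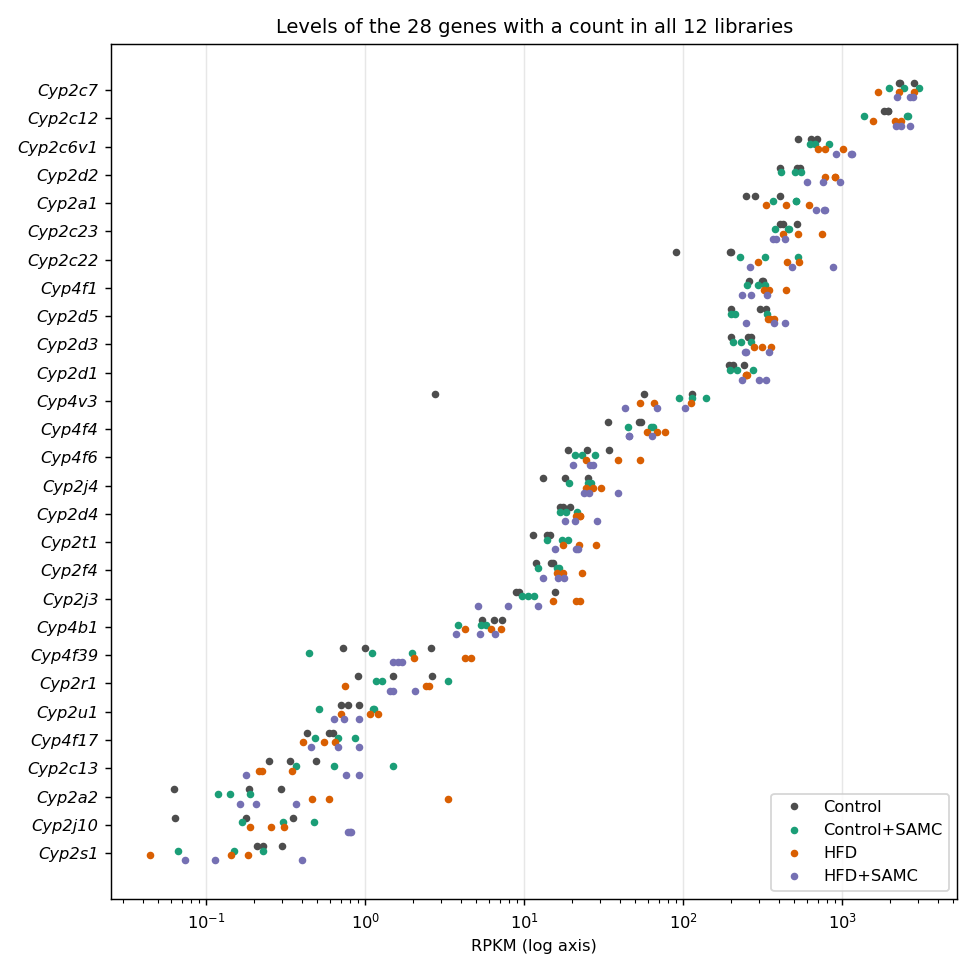
Level of each Cyp2 and Cyp4 gene with reads in every library, as deposited RPKM on a log axis, 1 point per library and coloured by group. Cyp2c7 (mean 2447) and Cyp2c12 (mean 2118) lead, and Cyp4v3 has 1 Control library at 2.74 far below its other points.

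Reads of near-identical genes can be split or lost in counting, so levels within Cyp2a, Cyp2c and Cyp2d are uncertain. In the deposited coordinates, which name no build, Cyp2c7 (chromosome 1, 147422999 to 148119979, minus strand) spans Cyp2c6v1 (chromosome 1, 147713879 to 147814410, plus strand) and the Cyp2c6-like gene LOC100911718, which had 193303 counts. A lincRNA with 96786 counts also overlaps Cyp2c7, on the same strand. Cyp2r1 overlaps Pde3b, Cyp2t1 overlaps Egln2, Cyp4f39 overlaps Pglyrp2, Cyp2ab1 overlaps Yeats2 and Cyp2d4 overlaps LOC103692951, each on the other strand. Whether counting used strand is not given in the sources used here, so values of these genes may hold reads of their partners. A further 14 rows named as like a Cyp2 or Cyp4 gene do not bear such a symbol and were not counted among the 41, and LOC100911718 had the most reads of them.

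Cyp2c12, Cyp2c7 and Cyp2a1 stood far above the male genes Cyp2c11, Cyp2c13 and Cyp2a2 in all 4 groups. The promoters of the female genes Cyp2c12 and Cyp2c7 and of the male genes Cyp2c11 and Cyp2c13, close relatives on chromosome 1 whose transcripts differed by orders of magnitude here, are shown to let their sequences be compared. Each line gives the 250 bases before the RefSeq start site in assembly GRCr8, 5′ to 3′ on the gene's strand. Capitals mark ATTGAT or ATCAAT, the core of the HNF6 (Onecut1) motif on either strand, and TATAAA or TTTATA, the TATA box motif on either strand. No capitals overlap between the motifs.
Cyp2c12: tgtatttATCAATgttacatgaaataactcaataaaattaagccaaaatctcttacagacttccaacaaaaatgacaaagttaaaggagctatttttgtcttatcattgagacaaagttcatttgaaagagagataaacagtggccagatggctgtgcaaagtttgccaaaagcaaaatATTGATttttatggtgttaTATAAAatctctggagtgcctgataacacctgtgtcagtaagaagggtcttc
Cyp2c7: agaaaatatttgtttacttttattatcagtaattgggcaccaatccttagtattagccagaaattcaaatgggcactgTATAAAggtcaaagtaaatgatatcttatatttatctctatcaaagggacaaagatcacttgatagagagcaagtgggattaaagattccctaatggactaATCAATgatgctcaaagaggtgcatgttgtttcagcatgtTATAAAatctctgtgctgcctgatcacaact
Cyp2c11: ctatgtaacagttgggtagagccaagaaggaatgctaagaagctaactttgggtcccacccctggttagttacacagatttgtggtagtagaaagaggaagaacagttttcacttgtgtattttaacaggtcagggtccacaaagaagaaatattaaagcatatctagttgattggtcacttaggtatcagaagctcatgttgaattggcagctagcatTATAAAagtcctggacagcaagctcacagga
Cyp2c13: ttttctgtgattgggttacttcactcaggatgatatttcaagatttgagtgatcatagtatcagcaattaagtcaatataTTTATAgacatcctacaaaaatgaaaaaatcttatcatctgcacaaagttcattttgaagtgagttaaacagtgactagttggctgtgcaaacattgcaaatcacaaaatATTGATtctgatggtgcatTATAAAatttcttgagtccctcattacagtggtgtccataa
Cyp2c12 lies at chr1:248677035-248677284 on the minus strand, Cyp2c7 at chr1:247966144-247966393 on the plus strand, Cyp2c11 at chr1:246174966-246175215 on the plus strand and Cyp2c13 at chr1:248787189-248787438 on the minus strand. The deposited row of Cyp2c7 is on the minus strand, in coordinates that name no build. The counted row and this promoter may thus rest on different gene models. A TATAAA lies 31 to 26 bases before the start in both Cyp2c7 and Cyp2c11, 52 to 47 bases before it in Cyp2c12 and 41 to 36 bases before it in Cyp2c13. The HNF6 core was found in 5 of the 34 genes with a promoter in the table, Cyp2c12, Cyp2c7 and Cyp2c13 among them, and in 7.1% of all 33469 promoters in windows of this length. Cyp2c12 holds a second HNF6 core 243 to 238 bases before the start, and Cyp2c7 and Cyp2c13 each a further TATA motif 172 to 167 and 170 to 165 bases before it. The nearer HNF6 core lies 71 to 66 bases before the start in Cyp2c12 and Cyp2c7 and 60 to 55 in Cyp2c13. The window of Cyp2c11 does not hold these letters. This core reads ATTGAT in Cyp2c12 and Cyp2c13, at the same distance from the TATAAA nearest the start. In Cyp2c7 it reads ATCAAT and lies farther from that TATAAA. The equal position in Cyp2c12 and Cyp2c7 thus holds only when counted from the annotated start. The 4 windows were 52.5% to 63.1% identical, with the highest value between Cyp2c12 and Cyp2c13. The 34 genes have 38 promoters in the table. Of these 38, the HNF6 core was in 5, the STAT5 motif TTCNNNGAA in 4 (7.67% of all promoters) and the TATA motif in 12 (12.9%). The HNF4 motif CAAAGTCCA, searched on both strands, was in 0 (0.338%). Letters this rare would be met in almost none of 38 promoters, so the 0 says nothing about HNF4 sites. Variants were not searched, such as the caaagttca in the windows of Cyp2c12 and Cyp2c13. These matches describe letters in a window and do not show binding.

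Cyp2c12 stood at 3459, 3926 and 3670 CPM in Control, at 4241, 2563 and 4571 in Control+SAMC, at 3504, 3387 and 2561 in HFD and at 3433, 4219 and 3831 in HFD+SAMC. All groups overlapped, and the lowest libraries were 1 of Control+SAMC and 1 of HFD. Cyp2c7 stood at 6633, 6558 and 5706 CPM in Control, at 5328, 4891 and 7066 in Control+SAMC, at 4898, 5396 and 3662 in HFD and at 5590, 4590 and 6069 in HFD+SAMC. All 3 HFD libraries lay below all 3 Control libraries, and the SAMC groups overlapped with every other group.

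Of the 5 male-predominant genes listed and found in the table, Cyp2c11, Cyp2c13, Cyp2a2 and Cyp3a2 had few reads. Cyp2c22, also on that list, was abundant, with 413318 counts and a mean RPKM of 373. Cyp2c11, the classic male enzyme and the leading Cyp2c of the male rat, had 9, 0 and 0 counts in Control, 14, 0 and 4 in Control+SAMC, 1, 10 and 2 in HFD and 25, 0 and 1 in HFD+SAMC. Cyp2c13 stood at 0.877, 0.734 and 0.471 CPM in Control, at 2.47, 0.691 and 1.12 in Control+SAMC, at 0.369, 0.507 and 0.356 in HFD and at 1.20, 1.44 and 0.294 in HFD+SAMC. Cyp2a2, a male testosterone hydroxylase, was between 0.171 and 1.11 CPM in 11 libraries and at 6.96 in HFD replicate 4. The Y-linked genes Sry, Kdm5d and Usp9y had 0 counts in every library, and Eif2s3y had 2 counts in all. Further genes known to differ between the sexes were looked up after these values had been seen. The male genes Mup5 and Obp3 had 24 and 2 counts over the 12 libraries, while the female-predominant Prlr and Sult2a1 were at 269 to 1404 and 1241 to 3296 CPM. No library stood apart from the others on the Y-linked genes.

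No member passed the threshold in any comparison. Under the quasi-likelihood test of edgeR, adjusted by the Benjamini-Hochberg method over 15916 genes, 0 of the 29 tested genes had an adjusted p under 0.05 in each of the 7 contrasts. The background was itself low: 0.145% of all genes passed in HFD against Control, 0.0503% in HFD+SAMC against HFD, 0.119% when Control+SAMC was set against Control, 0.0628% when HFD+SAMC was set against Control+SAMC, 0.421% for diet averaged over SAMC, 0.22% for SAMC averaged over diet and 0.145% for the interaction. At an unadjusted p under 0.05 in the same test, the members counted 4, 8, 1, 4, 5, 9 and 1 in that order, or 13.8%, 27.6%, 3.45%, 13.8%, 17.2%, 31% and 3.45% of 29. The shares of all genes were 10.7%, 10.6%, 9.78%, 10.9%, 13.6%, 12.4% and 7.41%. The DESeq2 Wald test, the other tool run, called 1 member in HFD against Control (1.94% of all genes), 2 in HFD+SAMC against HFD (1.55%), 2 for diet (3.39%) and 1 for SAMC (2.75%). It called 0 for the interaction (0.807%), in HFD+SAMC against Control+SAMC (1.71%) and in Control+SAMC against Control (1.38%). All of its calls were of Cyp2a2, Cyp2d2 or Cyp2j3. In bulk liver, fewer cells of a type and less RNA per cell cannot be told apart, which holds for each value below. Comparisons that share a group share its libraries: Control, for example, enters both HFD against Control and Control+SAMC against Control.

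The diet comparison without SAMC set the HFD livers against Control. Cyp2d2, Cyp2c22, Cyp2t1 and Cyp2a2 stood above all Control libraries, and Cyp2c7 and Cyp2s1, a P450 mostly of other epithelia, below them. In this comparison 4 marker sums did not overlap either. Macrophage markers (908 to 1054 CPM in HFD, 552 to 855 in Control) and stellate cell markers (238 to 363, 199 to 219) were higher in HFD. Sinusoidal endothelial markers (309 to 333, 365 to 399) and erythroid markers (78.4 to 96.7, 120.1 to 164) were lower, and the part of these cells was not tested. These 6 of 29 genes whose libraries did not overlap (20.7%) compare with 14.7% of all genes tested. The median log2 difference of the 29 genes was 0.10, with 21 above 0, against -0.0047 for all genes. Cyp2d2 hydroxylates debrisoquine and other basic drugs. It stood at 903, 859 and 1001 CPM in Control and at 1438, 1279 and 1264 in HFD, a log2 difference of 0.53 ± 0.19 (SE; edgeR's quasi-likelihood test, adjusted p = 0.345). Cyp2c22 stood at 346, 193 and 378 CPM in Control and at 478, 650 and 874 in HFD, or 1.13 ± 0.46 on the log2 scale (edgeR adjusted p = 0.414). For Cyp2t1 the log2 difference was 0.48 ± 0.19 (edgeR adjusted p = 0.403). It came to 0.25 without HFD replicate 2 and to 0.14 without the 4 libraries low in fibrinogen transcripts. Cyp2c7 was at 6299 ± 515 CPM (SD, n = 3) in Control and 4652 ± 893 in HFD, a log2 difference of -0.44 ± 0.21 (edgeR adjusted p = 0.497). Cyp2s1, below 1 CPM in every library, had a log2 difference of -1.27 ± 0.69 with an edgeR adjusted p of 0.545, and -0.61 without those 4 libraries. Cyp2c13 had the second lowest estimate, -0.75 (edgeR adjusted p = 0.701).

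Under SAMC the same diet comparison, HFD+SAMC against Control+SAMC, also gave Cyp2d2 an estimate above 0. Its CPM was 895, 932 and 711 in Control+SAMC and 1503, 922 and 1210 in HFD+SAMC, so that 1 library of each group overlapped. The log2 difference was 0.52 ± 0.19 (edgeR's quasi-likelihood test, adjusted p = 0.3601), and 0.33 without HFD+SAMC replicate 1. T and NK cell markers summed to 43.9 to 45.5 CPM in HFD+SAMC and 28.8 to 40.0 in Control+SAMC, which did not overlap, and their part was not tested. Cyp2c6v1 stood at 1398, 1471 and 1835 CPM in Control+SAMC and at 2267, 1810 and 2344 in HFD+SAMC, a log2 difference of 0.45 ± 0.17 (edgeR adjusted p = 0.376). In this comparison 4 of 29 members (13.8%) did not overlap, against 17.8% of all genes: Cyp2a1, Cyp2a3 and Cyp2j10 were higher and Cyp4v3 was lower in HFD+SAMC. The log2 difference of Cyp2j10 was 1.18 ± 0.51 (edgeR adjusted p = 0.435). The lowest estimates were those of Cyp4v3 (-0.83 ± 0.85 on the log2 scale, edgeR adjusted p = 0.800) and Cyp2c13 (-0.54, adjusted p = 0.801). That of Cyp2c13 came to 0.11 without Control+SAMC replicate 1. The members' median log2 difference was 0.08, with 16 of 29 above 0, against 0.0094 for all genes.

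Averaged over SAMC, which sets 6 high fat libraries against 6 normal diet libraries, Cyp2d2 gave the smallest p of any member in this contrast. The log2 difference was 0.52 ± 0.13, or 1.44-fold with a 95% interval of 1.17 to 1.76, with an edgeR adjusted p of 0.124. Over the alternatives its adjusted p ran from 0.00909 (DESeq2) to 0.413 (without the 4 libraries low in fibrinogen transcripts). The high fat libraries lay between 922 and 1503 CPM and the normal diet libraries between 711 and 1001, so that HFD+SAMC replicate 2 was the 1 high fat library inside the normal diet range. Of its near relatives, Cyp2d1 had a log2 difference of 0.07 (fold interval 0.887 to 1.24), and the edgeR adjusted p of Cyp2d5 was 0.599 and that of Cyp2d3 0.788. Cyp2c7 had a fold interval of 0.665 to 1.04 and Cyp2c12 one of 0.731 to 1.18 for the high fat diet, so that both intervals exclude a level 1.5 times higher, and that of Cyp2c12 also one 1.5 times lower. Cyp2c6v1 (0.29 ± 0.12) and Cyp2c22 (0.78 ± 0.32) were higher in the high fat groups on the log2 scale, with edgeR adjusted p values of 0.317 and 0.318. The estimate of Cyp2c6v1 came to 0.15 without the 4 libraries low in fibrinogen transcripts. The lowest estimates were those of Cyp2c13 (-0.65 ± 0.41, edgeR adjusted p = 0.531) and Cyp2s1 (-0.52 ± 0.48, adjusted p = 0.694), both with few reads. That of Cyp2c13 came to -0.32 without Control+SAMC replicate 1, and that of Cyp2s1 to -0.30 without Control+SAMC replicate 3. The highest, those of Cyp2a3 and Cyp2a2, are given with the low genes below. In this averaged contrast 0 of the 29 members had 6 libraries of one diet all above 6 of the other, against 1.08% of all genes.

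**Figure D2:**
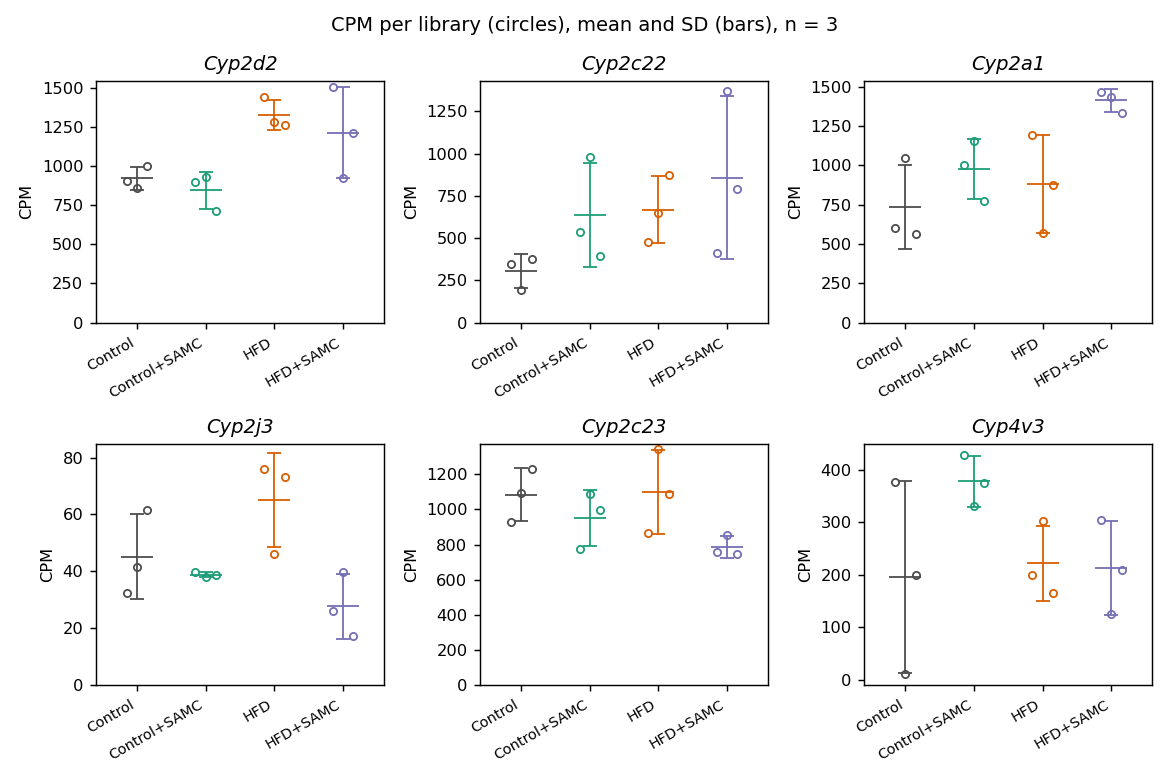
CPM in each library for Cyp2d2, Cyp2c22, Cyp2a1, Cyp2j3, Cyp2c23 and Cyp4v3, 1 panel per gene on a linear axis that starts at 0 or just below, with points for the 3 libraries, and mean and SD for each group. Cyp2d2 was at 1264 to 1438 in HFD against 859 to 1001 in Control, and the 3 HFD+SAMC libraries of Cyp2a1, at 1329 to 1469, are above all others.

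The effect of SAMC on the high fat diet was followed in HFD+SAMC against HFD. Cyp2a1, Cyp2a3 and Cyp2j10 stood above all HFD libraries and Cyp2a2, Cyp2c23, Cyp2j3, Cyp4f1 and Cyp4f39 below them, or 8 of 29 genes (27.6%) against 18.8% of all genes. The members' median log2 difference was -0.06, with 14 of 29 above 0, against 0.0034 for all genes. The macrophage marker sum was 753 to 891 CPM in HFD+SAMC against 908 to 1054 in HFD, and its part was not tested. Of the 8 arachidonate epoxygenase genes listed, 5 were tested and 0 passed. Their median log2 difference was -0.36, with 2 above 0, Cyp2j10 and Cyp2j4. Cyp2j3, an epoxygenase of liver and heart, stood at 76.1, 46.1 and 73.0 CPM in HFD and at 25.9, 39.9 and 17.4 in HFD+SAMC. All HFD libraries were above all HFD+SAMC libraries, with a log2 difference of -1.23 ± 0.31 or 0.427-fold (95% interval 0.268 to 0.681; edgeR's quasi-likelihood test, adjusted p = 0.248). Its adjusted p ran from 0.0115 (DESeq2) to 0.640 over the alternatives. Cyp2c23, the main arachidonate epoxygenase of rat kidney and also a liver gene, stood at 863, 1343 and 1087 CPM in HFD and at 756, 857 and 747 in HFD+SAMC (log2 difference -0.48 ± 0.20, edgeR adjusted p = 0.411). Without HFD replicate 3 the difference was -0.31. Cyp4f1 was at 765 ± 79.2 CPM (SD, n = 3) in HFD and 585 ± 102 in HFD+SAMC, with an edgeR adjusted p of 0.487.

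Of the 15 drug-metabolising Cyp2 genes listed, 13 were tested and 0 passed in HFD+SAMC against HFD. Their median log2 difference was 0.23 against 0.0034 for all genes, with 10 above 0, and the smallest p belonged to Cyp2a2, which was lower in HFD+SAMC. Cyp2a1 stood at 1195, 572 and 873 CPM in HFD and at 1469, 1437 and 1329 in HFD+SAMC. The HFD+SAMC libraries were the 3 highest of all 12, and the log2 difference was 0.68 ± 0.29 (edgeR's quasi-likelihood test, adjusted p = 0.430), or 0.45 without HFD replicate 3. Cyp2c6v1 was at 1602, 1836 and 1454 CPM in HFD and at 2267, 1810 and 2344 in HFD+SAMC, where the lowest overlapped with the highest HFD library (0.39 ± 0.17, edgeR adjusted p = 0.444). Cyp2j10, an epoxygenase relative at low level, stood at 0.443, 0.292 and 0.543 CPM in HFD and at 1.31, 1.36 and 1.41 in HFD+SAMC. Its log2 difference was 1.68 ± 0.52 (edgeR adjusted p = 0.307), on 6 to 91 counts per library over the study. Cyp4f6 had a log2 difference of -0.63 ± 0.25 (edgeR adjusted p = 0.408), which came to -0.41 without HFD replicate 3 and to -0.036 without the 4 libraries low in fibrinogen transcripts.

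On the normal diet SAMC was followed in the Control groups. In Control+SAMC against Control, 1 of 29 members did not overlap (3.45%), against 13.5% of all genes, and the members' median log2 difference was -0.03, with 13 above 0, against -0.012 for all genes. That gene was Cyp2c22, at 346, 193 and 378 CPM in Control and 534, 980 and 397 in Control+SAMC. All Control+SAMC libraries lay above Control, the lowest by a small margin, and the log2 difference was 1.06 ± 0.46 (edgeR's quasi-likelihood test, adjusted p = 0.490). Without Control+SAMC replicate 2 it came to 0.60. Cyp2c13 had an estimate of 1.04 ± 0.58 (edgeR adjusted p = 0.599). The lowest estimates were those of Cyp2s1 (-0.84, adjusted p = 0.752, and -0.48 without Control+SAMC replicate 1 or -1.27 without Control+SAMC replicate 3) and Cyp4f39, the relative of a skin fatty acid hydroxylase (-0.51, adjusted p = 0.838). That of Cyp4f39 came to 0.38 without Control replicate 2.

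Averaged over diet, SAMC gave the smallest p to Cyp2j3, with a log2 difference of -0.72 ± 0.22 and an edgeR adjusted p of 0.208 (0.0405 by DESeq2 to 0.512 over the alternatives). In the normal diet livers Cyp2j3 was at 32.5, 41.7 and 61.5 CPM without SAMC and at 39.7, 38.0 and 38.8 with it, which overlapped. The test of the difference between the SAMC effects on the 2 diets gave -1.01 ± 0.43 for Cyp2j3 (edgeR adjusted p = 0.648), the 1 member with an unadjusted p under 0.05 there. It gave 1.51 ± 0.97 for Cyp2s1 (adjusted p = 0.785), 1.08 ± 0.74 for Cyp2j10 (0.806) and -1.01 ± 1.20 for Cyp4v3 (0.903). Cyp2s1 came to 0.47 without HFD+SAMC replicate 2, and Cyp2j10 to 0.44 without Control replicate 1. Cyp4v3 came to 0.085 without the 4 libraries low in fibrinogen transcripts. Cyp2j10, Cyp2a3, Cyp2c13 and Cyp2a2, all with few reads, had edgeR adjusted p values from 0.245 to 0.289 for SAMC averaged over diet. Their estimates were 1.14 ± 0.37, 2.36 ± 0.82, 1.14 ± 0.41 and -1.47 ± 0.53 in that order. Cyp2a1 (0.54 ± 0.20), Cyp2c23 (-0.33 ± 0.14), Cyp4f6 (-0.45 ± 0.18) and Cyp2c22 (0.71 ± 0.32) had edgeR adjusted p values from 0.303 to 0.402. Cyp4f39 was at -0.83 ± 0.40 (edgeR adjusted p = 0.439), and at -0.25 without the 4 libraries low in fibrinogen transcripts. Without the 4 libraries low in fibrinogen transcripts, Cyp4f6 came to -0.16 and Cyp2c22 to 0.45, and Cyp2c22 also to 0.45 without HFD+SAMC replicate 2. The fold intervals for SAMC were 0.880 to 1.42 for Cyp2c12, 0.823 to 1.29 for Cyp2c7 and 0.905 to 1.27 for Cyp2d1. In this contrast, too, 0 of 29 members separated all 6 libraries from the other 6, against 0.955% of all genes. The members' median log2 difference was 0.07 for diet and -0.09 for SAMC, with 17 and 12 of 29 above 0, against 0.00059 and -0.0047 for all genes.

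**Figure D3:**
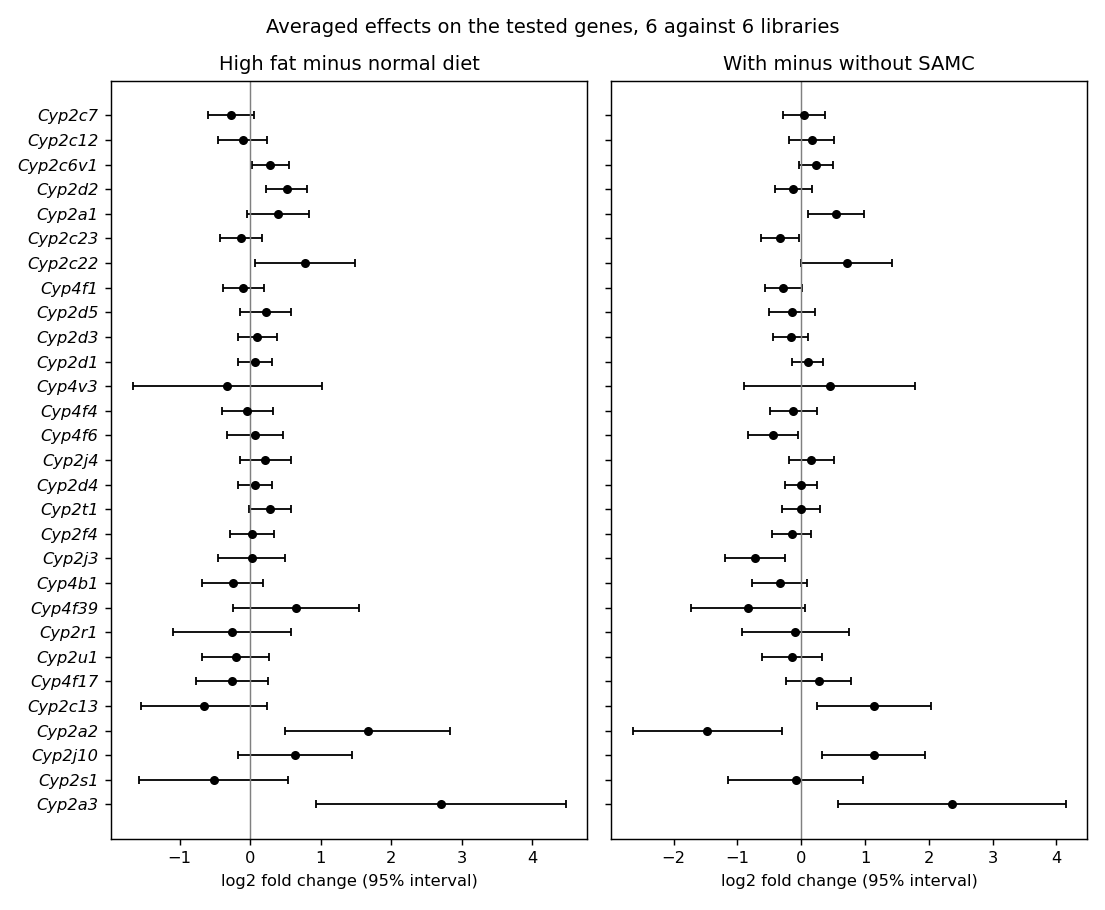
Log2 difference with 95% interval for the tested genes, for the high fat diet averaged over SAMC and for SAMC averaged over diet, from edgeR's fit. Cyp2d2 has an interval of 0.23 to 0.81 for diet, and the interval of Cyp2c12 spans 0 in both.

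Genes at the lower end of the levels carried the largest log2 estimates, and these rest on few reads. Cyp2a2 had 35, 7 and 20 counts in Control, 14, 21 and 13 in Control+SAMC, 52, 72 and 372 in HFD and 27, 47 and 22 in HFD+SAMC. Every HFD library was above every library of the other groups in CPM, with HFD replicate 4 far above the other HFD libraries. The log2 difference was 2.79 ± 0.77 in HFD against Control (edgeR's quasi-likelihood test, adjusted p = 0.219) and -2.59 ± 0.75 in HFD+SAMC against HFD (adjusted p = 0.269). Without HFD replicate 4 they came to 1.25 and -1.05, and the averaged effects of diet and SAMC went from 1.67 and -1.47 to 0.90 and -0.70. The interaction estimate of Cyp2a2, -2.23, came to -0.69 without that library. Cyp2a3, a P450 of the nasal lining and lung, had 0, 1 and 1 counts in Control, 0, 9 and 3 in Control+SAMC, 10, 1 and 7 in HFD and 19, 40 and 51 in HFD+SAMC. The HFD+SAMC libraries were the 3 highest. The ratio of its summed counts, scaled by library size, was 5.46 between HFD+SAMC and HFD (exact 95% interval 3.30 to 9.56, counting error only) and 6.76 between HFD+SAMC and Control+SAMC (3.72 to 13.5). Against Control, with 2 counts in all, the ratio was 7.19 for HFD (1.72 to 63.9) and 5.80 for Control+SAMC (1.29 to 53.4). Control+SAMC replicate 2 held 9 of its group's counts, and without it edgeR's log2 estimate went from 2.35 to 0.96 in Control+SAMC against Control and from 2.72 to 4.10 in HFD+SAMC against Control+SAMC. Across libraries, the edgeR adjusted p of Cyp2a3 was 0.402 in HFD+SAMC against HFD and 0.350 in HFD+SAMC against Control+SAMC.

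**Figure D4:**
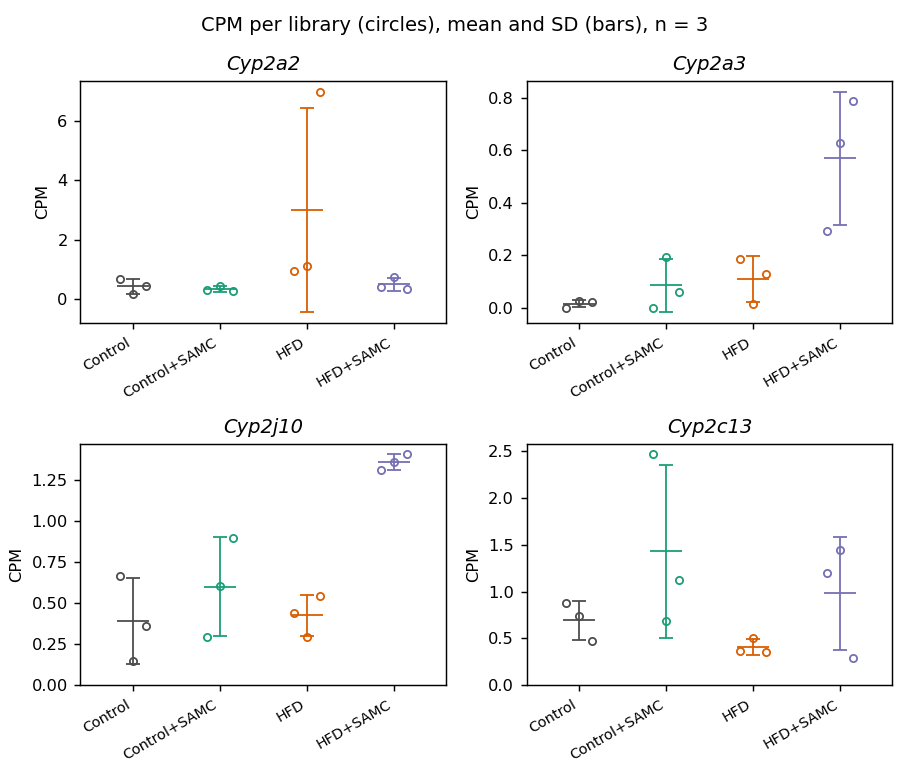
Values in each library for Cyp2a2, Cyp2a3, Cyp2j10 and Cyp2c13, 1 panel per gene on a linear axis of CPM, with points for the 3 libraries, and mean and SD for each group; an SD bar can reach below 0. The highest Cyp2a2 value, 6.96, is HFD replicate 4, and Cyp2j10 is at 1.31 to 1.41 in HFD+SAMC.

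Among the Cyp4 genes, 7 of 12 were tested and none passed in any contrast by edgeR's quasi-likelihood test or by DESeq2. At an unadjusted p under 0.05 there was 1, Cyp4f6, in HFD+SAMC against HFD and for SAMC averaged over diet, and 0 in the other 5 contrasts. Of all genes, 10.6% and 12.4% did so in those 2 contrasts, so that 1 of 7 is near the background. In HFD+SAMC against HFD 1 of the 7 had an estimate above 0, with a median log2 difference of -0.38 against 0.0034 for all genes. Cyp4f39 was at 14.2, 13.8 and 6.77 CPM in HFD and 5.17, 5.50 and 4.97 in HFD+SAMC. Control replicate 2, at 11.3, overlapped with HFD, and its own group was at 3.58 and 2.80 otherwise. Cyp4v3 was the least even of the abundant genes, at 377, 11.02 and 200 CPM in Control, 429, 332 and 375 in Control+SAMC, 200, 303 and 165 in HFD and 305, 126 and 209 in HFD+SAMC. Control replicate 2 alone was near 11 CPM, and the 3 other libraries low in fibrinogen transcripts were at 429, 200 and 303. No contrast of Cyp4v3 had an edgeR adjusted p under 0.05, and the median within-group SD of the tested members on the log2 scale, 0.324, was above that of all tested genes, 0.243.

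Genes that supply or regulate these enzymes were counted in 5 lists. Of 6 electron donors and membrane partners, 12 genes of heme synthesis and breakdown and 9 of growth hormone signalling, none passed edgeR's adjusted threshold in any contrast. Their smallest p values were those of Pgrmc2, a heme-binding membrane partner (HFD against Control, log2 difference -0.56 ± 0.16, adjusted p = 0.245), Ppox, an enzyme of heme synthesis (diet averaged, -0.43 ± 0.14, adjusted p = 0.217), and Cux2, a female-predominant liver repressor (SAMC averaged, -0.77 ± 0.24, adjusted p = 0.222). DESeq2 called Cux2 (adjusted p = 0.0436), and its estimate came to -0.23 without the 4 libraries low in fibrinogen transcripts. All 6 electron donors and partners had an estimate below 0 for the high fat diet averaged over SAMC, with a median of -0.25 on the log2 scale, and 3 had an unadjusted p under 0.05. Of all genes 13.6% had such a p in this contrast, the median was 0.00059 and 50.1% were above 0.

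Of 13 liver transcription factors and receptors, 1 passed in any contrast, for diet averaged over SAMC, where 0.421% of all genes passed. Of 2 epoxide hydrolases, 1 did, for SAMC averaged over diet (0.22% of all genes). Nr1i3, the receptor CAR that drives drug-metabolising P450 genes, stood at 2.84, 4.97 and 4.73 CPM in Control, 9.10, 5.59 and 1.88 in Control+SAMC, 20.4, 23.1 and 10.4 in HFD and 24.3, 19.9 and 21.7 in HFD+SAMC. It rose with the high fat diet in edgeR's averaged contrast, by 2.05 ± 0.34 on the log2 scale (adjusted p = 0.0314). The high fat libraries were all above the others, as in 0.578% of all genes. Ephx1, which hydrolyses epoxides made by P450 enzymes, stood at 187, 226 and 222 CPM in Control, 1794, 592 and 1216 in Control+SAMC, 238, 582 and 421 in HFD and 653, 1206 and 778 in HFD+SAMC. It rose with SAMC in edgeR's averaged contrast, by 1.80 ± 0.29 (adjusted p = 0.0297). Every SAMC library was above every library without SAMC, as in 0.572% of all genes. The call of Nr1i3 was kept without Control+SAMC replicate 1, Control+SAMC replicate 3 or HFD replicate 4 and lost without any 1 of the other 9 libraries, with adjusted p up to 0.147 over the alternatives. That of Ephx1 was kept without Control+SAMC replicate 2 or 3 and lost without any 1 of the other 10, with adjusted p up to 0.185. Hnf4a, a main hepatocyte transcription factor named after its values were seen, was at 500, 649 and 530 CPM in HFD+SAMC and at 874 to 1236 in all other libraries (log2 difference to Control+SAMC -0.86 ± 0.17, edgeR adjusted p = 0.0918, DESeq2 4.55e-05). Foxa3 and Onecut1 (HNF6) of the same list, also named after their values were seen, were lower for the high fat diet averaged over SAMC. Their log2 differences were -0.99 ± 0.20 and -0.79 ± 0.17 (edgeR adjusted p = 0.0683 and 0.0677), against -0.54 ± 0.12 (0.0792) for Hnf4a. All high fat libraries of Foxa3 lay below all others, as in 0.503% of all genes. Onecut1 was at 425 to 547 CPM in Control, 369 to 632 in Control+SAMC, 355 to 392 in HFD and 164 to 286 in HFD+SAMC.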

How the data were processed

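The 41 genes and all gene lists were chosen with earlier results of these data known. Per the labels' protocols, total RNA depleted of ribosomal RNA was sequenced as paired reads, aligned with HISAT2 and counted with HTSeq; reads were trimmed with Trimmomatic 0.36, per the submitters' processing notes. For the genome build, annotation release and strand setting, nothing is given in these sources. Read counts and RPKM values were deposited by the authors (counts, and counts per length and library total) for 40154 genes. Counts of all 12 libraries entered 1 edgeR 4.0.16 fit of 4 group means (R 4.3.3, TMM, filterByExpr, robust quasi-likelihood F test, two-sided, Benjamini-Hochberg over the 15916 genes kept), tested on simulated data. CPM are TMM-scaled, log2 differences are edgeR estimates ± SE, and group values are mean ± SD. Alternatives were RLE size factors, no filter, DESeq2 1.42.0, a replicate block, only the 2 groups compared, each library left out, and the 4 libraries low in fibrinogen transcripts left out. Genes given with values were those past the threshold, 4 sex-related or family markers, the 12 with the highest mean RPKM, and the 2 largest estimates each way per contrast. Further members whose libraries separated were added. Pairs of libraries within a group had chi-square values of 87.9 to 645 per degree of freedom, so none was merged. Promoters are from RefSeq (GRCr8): 34 of the 41 genes matched.

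Beside the hepatocyte, macrophage and cholangiocyte sums, the other marker lists gave summed CPM ranges over Control, Control+SAMC, HFD and HFD+SAMC in turn. T and NK cell markers gave 29.1 to 41.2, 28.8 to 40.0, 40.6 to 57.0 and 43.9 to 45.5. Stellate cell markers gave 199 to 219, 218 to 314, 238 to 363 and 186 to 280.3. Sinusoidal endothelial markers gave 365 to 399, 269 to 391, 309 to 333 and 306 to 365. Erythroid markers gave 120.1 to 164, 99.0 to 342, 78.4 to 96.7 and 56.5 to 119, and skeletal muscle markers 0.648 to 1.70, 0.253 to 0.605, 0.805 to 1.13 and 0.705 to 1039.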

Additional observations from a re-analysis of the deposited data

How the results depend on the processing

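The count of members past the adjusted threshold was 0 in all 7 contrasts under RLE size factors, no filter, the replicate block, each library left out and the 4 libraries low in fibrinogen transcripts left out, and in the 4 contrasts of 2 groups with only those groups in the fit. DESeq2 called 1 member in HFD against Control (Cyp2a2, adjusted p = 0.0107), 2 in HFD+SAMC against HFD (Cyp2j3, 0.0115, and Cyp2a2, 0.0258), 2 for diet (Cyp2d2, 0.00909, and Cyp2a2, 0.0410) and 1 for SAMC (Cyp2j3, 0.0405). Of the named members' log2 estimates, 9 values changed sign under a setting. Cyp4f39 in Control+SAMC against Control ranged from -1.02 to 0.38 with 1 library left out, the latter without Control replicate 2. Cyp2c13 in HFD+SAMC against Control+SAMC ranged from -0.93 to 0.11, the latter without Control+SAMC replicate 1, and came to 0.11 without the 4 libraries. Cyp4v3 came to 0.11 for diet with the replicate block and ranged from -0.61 to 0.12 with 1 library left out, the latter without Control replicate 1, and its interaction estimate came to 0.085 without the 4 libraries. Cyp2c7 for SAMC came to -0.042 with the replicate block, and ranged from -0.041 to 0.11 with 1 library left out, below 0 without Control+SAMC replicate 3 or HFD replicate 4. The cause was not tested. Samples share only a number: 2 of 15 same-number pairs had a correlation of deviations over 0.1 (range -0.32 to 0.34), and 2 of 12 libraries correlated best with their own number. With the replicate block all-gene calls went from 23, 8, 19, 10, 67, 35 and 23 to 24, 11, 6, 2, 53, 10 and 9 in the order of the contrasts above. Leaving out 1 library gave 4 to 53, 1 to 27, 3 to 23, 1 to 45, 30 to 130, 13 to 68 and 7 to 19. DESeq2 gave 308, 246, 219, 272, 538, 436 and 128. Without the 4 libraries there were 3, 0, 22, 25, 31, 42 and 2, and without a filter 29, 19, 26, 21, 67, 67 and 17. With only the groups compared, 4, 23, 5 and 44 genes passed in the 4 contrasts of 2 groups. With 3 libraries a group, the intervals of low genes such as Cyp2a3 and Cyp2s1 span several-fold differences.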
